A study of Mus musculus with 9 samples.

Results

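Pomc and 6 genes measured with it (Pcsk1, Pcsk2, Tbx19, Oacyl, Chgb and Resp18) were followed through a single-cell RNA-seq table of mouse brain. They are 7 of the 18634 genes in the table and were taken by name, from a list drawn up with earlier results of these data known. All 7 were found by symbol in the 29571 cells, and the cells of the 3 Pomc-rich libraries were grouped by the share of a cell's unique molecular identifiers (UMIs, each counted as 1 captured transcript) that came from Pomc.

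The cells came from C57BL/6J mice aged 9 to 11 weeks, with cortex, hypothalamus and brainstem dissected from each of 3 sleep groups. The groups were normal sleep (NS), 12 h of sleep deprivation begun at lights on (SD), and the same deprivation followed by recovery sleep (RS), for which the labels give 24 h in one place and 12 h in another. All brains were taken at ZT12, the time of lights off, and each library pooled 3 mice. There was 1 library for each tissue and sleep group, so no group had a replicate.

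The 9 library codes of the table could not be tied by their labels to a tissue or sleep group, and the libraries are therefore numbered 1 to 9 in the order of their columns. No comparison of tissues or of sleep groups was made. Each library held 2575 to 3916 cells, with median depths of 402 to 1055 UMIs per cell. Libraries 4, 5 and 6 stood apart from the other 6. Gh, which encodes growth hormone of the pituitary, took 25.3%, 27.9% and 32.1% of their UMIs and at most 0.00755% elsewhere. The pituitary is not among the tissues that the labels name. Within libraries 4 to 6, any 2 libraries had 11 to 18 cell barcodes in common, and none of these marked a cell at 10% Pomc in both.

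POMC is a prohormone, a long inactive protein that is cut into several short peptides. Prohormone convertase 1, encoded by Pcsk1, releases ACTH in corticotrophs of the anterior pituitary, and prohormone convertase 2, encoded by Pcsk2, cuts further to give α-MSH and β-endorphin in melanotrophs of the intermediate lobe and in POMC neurons of the hypothalamus. Tbx19 (T-pit) is the transcription factor that switches on Pomc in both pituitary cell types, Pax7 marks the melanotroph, and Crhr1 is the receptor through which corticotrophs answer CRH. Chgb encodes the granule protein chromogranin B, Resp18 is a secretory-pathway gene of neuroendocrine cells, and Oacyl is named for its likeness to acyltransferases.

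The upstream sequences below are those of Pomc, of the 2 convertase genes and of Tbx19, shown because the results below turn on the activator, the prohormone and its cutting enzymes. They are RefSeq sequences on GRCm38.p6, the genome release the study also mapped to, and run from 250 bases upstream up to the annotated gene start. That of Pcsk1 stops after 219 bases because GENCODE vM21 starts the gene earlier. Lower case is sequence, and capitals mark matches on either strand to TATAAA, to CANNTG (the E-box) or to TGACG (the core of the CRE).
Pomc (chr12:3954695-3954944, plus strand): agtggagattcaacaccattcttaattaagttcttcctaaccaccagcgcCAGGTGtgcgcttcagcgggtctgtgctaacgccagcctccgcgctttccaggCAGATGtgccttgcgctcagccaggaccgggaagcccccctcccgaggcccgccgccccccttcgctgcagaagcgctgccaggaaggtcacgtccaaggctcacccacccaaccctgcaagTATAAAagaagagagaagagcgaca
Pcsk2 (chr2:143545883-143546132, plus strand): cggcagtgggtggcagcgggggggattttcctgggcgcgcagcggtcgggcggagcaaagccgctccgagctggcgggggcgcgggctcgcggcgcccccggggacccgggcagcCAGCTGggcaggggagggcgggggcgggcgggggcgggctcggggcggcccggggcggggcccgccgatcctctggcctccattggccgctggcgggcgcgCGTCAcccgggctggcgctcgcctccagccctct
Pcsk1 (chr13:75089607-75089825, plus strand): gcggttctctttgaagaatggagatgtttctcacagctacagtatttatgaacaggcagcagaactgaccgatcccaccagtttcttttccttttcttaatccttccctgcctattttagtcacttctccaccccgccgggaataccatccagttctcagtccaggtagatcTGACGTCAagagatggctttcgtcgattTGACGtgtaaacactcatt
Tbx19 (chr1:165160774-165161023, minus strand): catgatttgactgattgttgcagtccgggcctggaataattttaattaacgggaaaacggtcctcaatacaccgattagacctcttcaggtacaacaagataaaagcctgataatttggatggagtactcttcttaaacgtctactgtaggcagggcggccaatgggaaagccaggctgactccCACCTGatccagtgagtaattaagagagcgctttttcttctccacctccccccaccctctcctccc

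Pomc was the only one of the 4 with TATAAA, which lay 25 bases before the start and was present in 13.0% of 27025 promoter windows of the same length. It also held 2 E-boxes, a motif found in 66.0% of the windows. The Pcsk1 window held 3 matches to TGACG, of which 2 overlapped on opposite strands, and that of Pcsk2 held 1, against 17.9% of windows with any match. The letters of the T-box motif TCACACC, found in 3.31% of windows, were in none of the 4. Over 250 bases, G and C made up 82.4% of the Pcsk2 window and 46.8% of the Pcsk1 window, and the median over all windows was 52.0%.

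In GENCODE vM21, Pomc spans chr12:3954951-3960642 and Pcsk1 chr13:75089826-75134861, both on the plus strand and overlapping no other gene. Pcsk2 spans chr2:143546156-143816285 on the plus strand and overlaps 2 antisense genes, Pcsk2os1 and Pcsk2os2. Tbx19 lies at chr1:165137855-165160773 on the minus strand and overlaps Gm16550 on that strand. Chgb lies at chr2:132781278-132795079 on the plus strand, and Resp18 lies at chr1:75272199-75278415 on the minus strand and overlaps Gm28902. The use of strand in counting is not given in the sources used here, so reads of these overlapping genes could not be told apart.

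**Figure D1:**
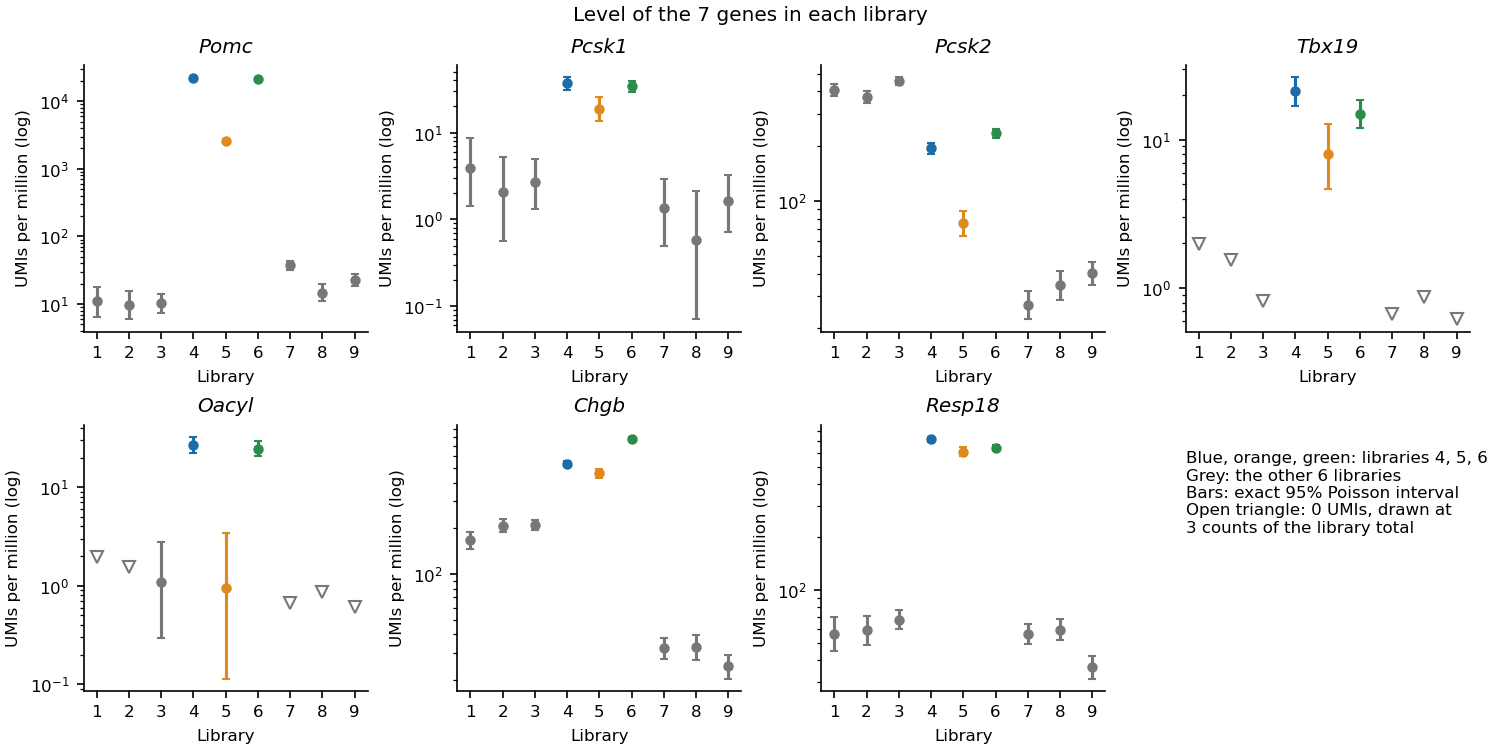
Counts per 1000000 UMIs (log axes) for each gene in the 9 libraries. Bars are exact 95% Poisson intervals, open triangles mark 0 UMIs, and Pomc sits at 2605 or more in libraries 4, 5 and 6 and at 37.6 or less in every other library.

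Pomc was read at 22369 counts per 1000000 UMIs (CPM) in library 4, at 2605 CPM in library 5 and at 21251 CPM in library 6. The other 6 libraries held 9.83 to 37.6 CPM. The ranges did not overlap, and library 5 lay well below its 2 neighbours. Cells with at least 1 Pomc UMI were 50.4%, 7.95% and 65.7% of libraries 4, 5 and 6, against 0.598% to 3.83% elsewhere. In bulk sums such as these, more cells of a type and more RNA per cell cannot be told apart.

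Tbx19, the activator of Pomc, was read in libraries 4 to 6 and nowhere else. Its levels were 21.2 CPM in library 4 (95% Poisson interval 16.9 to 26.2), 8.01 in library 5 (4.67 to 12.8) and 14.9 in library 6 (11.9 to 18.5), from 84, 17 and 82 UMIs. None of the 19458 cells of the other 6 libraries had a Tbx19 UMI, a count of 0 that allows a share of cells with a UMI of up to 0.0154%. Here and below, the limit given for a count of 0 is that of 3 counts. The intervals of libraries 4 and 6 overlapped, as did those of libraries 5 and 6. All intervals given here cover counting error only.

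Of the 2 convertases, Pcsk1 followed the Pomc-rich libraries and Pcsk2 did not. Pcsk1 was read at 36.8 CPM in library 4, 18.9 in library 5 and 34.4 in library 6, against 0.581 to 3.94 CPM in the other 6. Pcsk2 stood at 195, 75.4 and 236 CPM in libraries 4, 5 and 6. It was higher in libraries 1, 2 and 3, at 407, 374 and 455 CPM, and lower in libraries 7, 8 and 9, at 27.0, 34.6 and 40.2 CPM. In libraries 1 to 3, Pcsk2 was detected in 68.8%, 61.1% and 69.4% of the cells with at least 5 UMIs of the neuronal genes Snap25, Tubb3, Syt1 and Stmn2. Pcsk2 is known as a convertase of many neurons, and the order of its levels over the 9 libraries was not that of Pomc.

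Oacyl separated library 5 from libraries 4 and 6. It was read at 27.0 CPM in library 4 and 24.6 CPM in library 6, but at 0.943 CPM in library 5, where 2 UMIs were found. It was not read in 5 of the other 6 libraries and was read 4 times in library 3, each time in a neuronal-gated cell. The intervals of libraries 3 and 5 (0.297 to 2.79 and 0.114 to 3.40 CPM) overlapped.

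Both granule genes were higher in libraries 4 to 6 than in any other library. Chgb was read at 534, 459 and 779 CPM in libraries 4, 5 and 6, against 167 to 210 CPM in libraries 1 to 3 and 24.6 to 32.8 CPM in libraries 7 to 9. Resp18 was read at 713, 609 and 640 CPM, against 36.5 to 67.8 CPM in the other 6. Library 5 thus held levels of Chgb and Resp18 near those of libraries 4 and 6, unlike its level of Pomc.

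**Figure D2:**
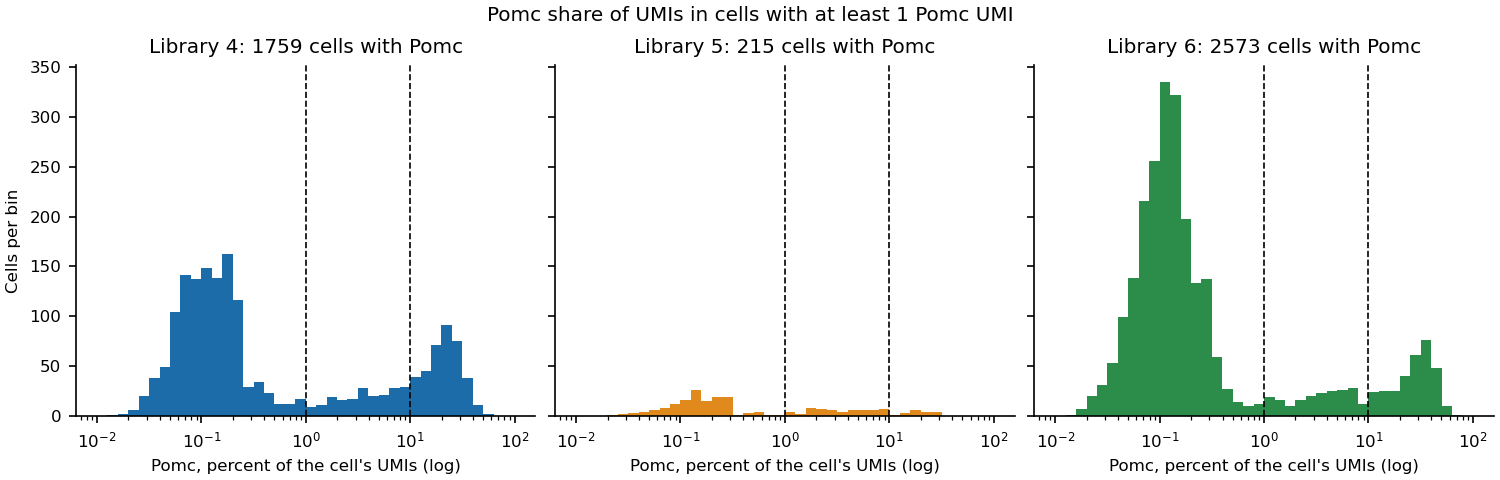
Histograms of the Pomc share of each cell's UMIs (log axis) in libraries 4, 5 and 6, for cells with at least 1 Pomc UMI. Dashed lines mark 1% and 10%, and libraries 4 and 6 each show a large group of cells near 0.1% and a smaller one above 10%.

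Cells were then split by Pomc into those under 1%, those from 1% to 10% and those at 10% or more of UMIs, which holds 8964, 449 and 700 cells of libraries 4 to 6. At 10% or more were 372 of the 3491 cells in library 4 (10.7%, exact 95% binomial interval 9.65% to 11.7%), 18 of 2706 in library 5 (0.665%, 0.395% to 1.05%) and 310 of 3916 in library 6 (7.92%, 7.09% to 8.81%). Library 5 therefore had a share of such cells more than 10 times below both others, and the intervals were far apart. The class from 1% to 10% held 198, 56 and 195 cells.

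The median cell at 10% or more carried 159.5, 193.5 and 265.5 Pomc UMIs in libraries 4, 5 and 6. The highest shares of a single cell were 59.5%, 29.8% and 70.0%. Cells of this class accounted for 87.9%, 65.1% and 87.9% of the Pomc UMIs of the 3 libraries. Nearest to the 10% line, the lowest cells inside stood at 10.0%, 10.9% and 10.1% in libraries 4, 5 and 6, and the highest cells outside at 9.84%, 9.88% and 9.90%. At the 1% line the nearest cells stood at 1.01% and 0.997% in library 4, at 1.07% and 0.867% in library 5, and at 1.01% and 0.976% in library 6.

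Gh was a small share of the UMIs of Pomc-rich cells. At 10% or more Pomc, Gh made up 0.945%, 0.630% and 2.51% of UMIs in libraries 4, 5 and 6, against 28.8%, 28.7% and 35.4% in cells under 1% Pomc. The latter sums were uneven over cells, and the median cell under 1% Pomc held 1.18%, 0.865% and 42.8% Gh, against medians of 0.641%, 0.719% and 1.00% at 10% or more. Between 1% and 10% Pomc the sums were 4.46%, 0.608% and 7.70%. Below, levels in a class are given as CPM after leaving out the hormone genes Pomc, Gh, Prl, Tshb, Lhb, Fshb and Cga, since a cell full of one hormone leaves fewer UMIs for other genes, and are called non-hormone CPM. Ratios between classes were taken after adding 10 to each level, and a gene was called higher where the ratio reached 2-fold in each library compared. With totals that leave out Pomc alone, the median ratio of all genes moved up by 0.39, 0.29 and 0.46 on the log2 scale in libraries 4, 5 and 6.

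**Figure D3:**
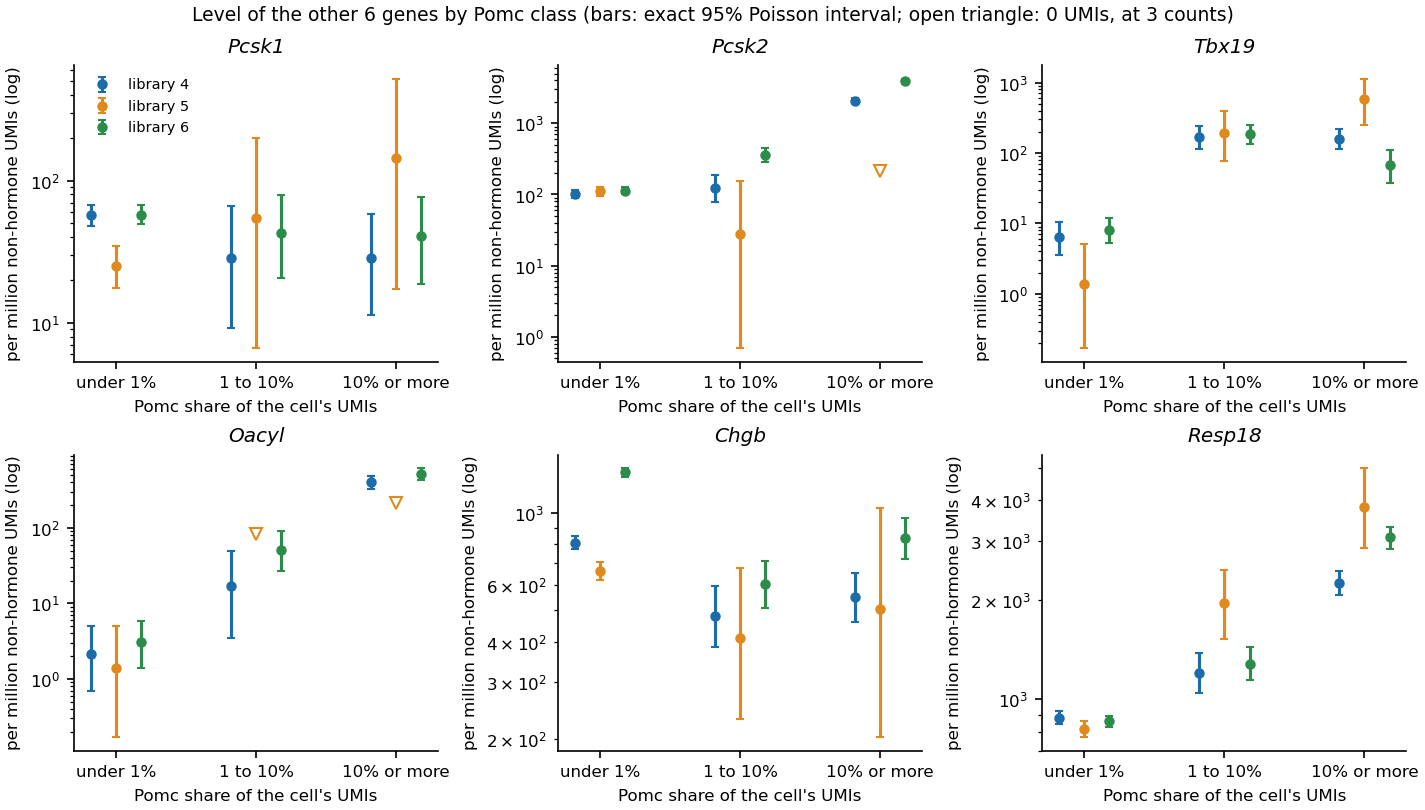
Level of the other 6 genes, in non-hormone CPM on a log axis, in cells under 1%, from 1% to 10% and at 10% or more Pomc in libraries 4, 5 and 6. Bars are exact 95% Poisson intervals, open triangles mark 0 UMIs at the level of 3 counts, and Pcsk2 and Oacyl climb with Pomc in libraries 4 and 6 but not in library 5.

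Pcsk2 differed between the Pomc-rich cells of the libraries. Cells at 10% or more Pomc held 2085 non-hormone CPM of Pcsk2 in library 4 (1908 to 2273), 0 in library 5 and 3963 in library 6 (3705 to 4235). Cells under 1% Pomc held 100, 111 and 113 non-hormone CPM. The ratio was 19.0 in library 4 and 32.4 in library 6, and it was 199 and 129 after subtracting the level in microglial-gated cells as free RNA. In library 4 that level rests on 12 UMIs in 5 of 164 microglial-gated cells, a gate that held 5 cells at 10% or more Pomc. The endothelial gate gave 1 UMI (7.37 CPM). Subtracting the microglial level left no Pcsk2 in the cells under 1% Pomc of library 4. The 199 thus divides by the added 10 alone, and its size is not set against that of library 6. With totals that leave out Pomc alone, the ratio of library 6 was 48.8. In library 5 no ratio is given, since its 13901 non-hormone UMIs in that class put a count of 0 only below 216 non-hormone CPM.

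By cells, Pcsk2 was detected in 208 of 372 cells at 10% or more Pomc in library 4 (55.9%, 50.7% to 61.0%) and in 221 of 310 in library 6 (71.3%, 65.9% to 76.3%). In library 5 it was detected in 0 of 18, a count that allows a share of up to 16.7% (18.5% by the exact interval), below both intervals. Library 5 had no cell at 30% or more Pomc, so this class differed in make-up. By exact intervals, its 0 of 10 cells from 10% to 20% (up to 30.8%) overlapped library 6 (18.5% to 40.1%) but not library 4 (35.7% to 51.8%). Its 0 of 8 from 20% to 30% (up to 36.9%) lay below libraries 4 and 6 (from 53.0% and 63.0%). Over all cells at 1% or more Pomc, library 5 had Pcsk2 in 1 of 74 cells (1.35%, 0.0342% to 7.30%), library 4 in 225 of 570 (39.5%) and library 6 in 246 of 505 (48.7%). From 1% to 10% Pomc, the class of 56 of the 74 cells, Pcsk2 was in 1.79% of the cells of library 5 (0.0452% to 9.55%). In libraries 4 and 6 it was in 8.59% (5.08% to 13.4%) and 12.8% (8.47% to 18.3%) of that class, and the intervals overlapped. The shares over all these cells thus depend on the class sizes. In cells at 10% or more Pomc the median depth was highest in library 5, at 943 UMIs per cell against 764.5 and 900. Over all cells at 1% or more it was lowest there, at 595 UMIs in cells without Pcsk2 against 787 and 864.

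The same cells were compared with cells that should lack Pcsk2. Among cells with at least 5 UMIs of the endothelial genes Cldn5, Flt1, Pecam1, Ly6c1, Itm2a and Cdh5, Pcsk2 was found in 1 of 134 in library 4 (0.746%, median 715.5 UMIs per cell), 1 of 161 in library 5 (0.621%, median 496) and 2 of 45 in library 6 (4.44%, median 988). After each cell was thinned to 500 non-hormone UMIs, the share of cells at 10% or more Pomc with Pcsk2 was 47.4% in library 4 (251 cells kept, 121 shallower ones left out), 0 of 14 in library 5 and 61.8% in library 6 (241 kept, 69 left out). In cells under 1% Pomc the thinned share was 4.34%, 4.96% and 4.97%. At 10% or more Pomc the order of the libraries was the same with and without thinning, while under 1% it was not, with 6.57%, 5.13% and 7.71% unthinned.

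Oacyl was also high in the Pomc-rich cells of libraries 4 and 6. Cells at 10% or more Pomc held 401 non-hormone CPM of Oacyl in library 4 (326 to 488), 0 in library 5 and 515 in library 6 (425 to 619), against 2.14, 1.39 and 3.05 non-hormone CPM under 1% Pomc. The ratio was 33.8 in library 4 and 40.3 in library 6, sizes that the added 10 holds down, since with 1 CPM added they were 128 and 128. An Oacyl UMI was carried by 74 of 372 (19.9%) and 82 of 310 cells (26.5%) of libraries 4 and 6 in that class. In library 5 it was carried by 0 of 18, which allows a share of up to 16.7%, a limit within the exact interval of library 4. Over all cells at 1% or more Pomc it was carried by 76 of 570 (13.3%), 0 of 74 and 93 of 505 (18.4%) in libraries 4, 5 and 6, and the count of 0 allows up to 4.05%. From 1% to 10% Pomc, where 56 of those 74 cells lay, it was in 1.01%, 0% and 5.64% of the cells. The shares over all these cells thus depend on the class sizes, and no difference is read from them. No endothelial-gated cell of the 3 libraries had an Oacyl UMI. Thinning to 500 UMIs left 15.5% and 21.6% of the Pomc-rich cells of libraries 4 and 6 with Oacyl.

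Tbx19 was found in Pomc-rich cells of all 3 libraries, library 5 included. At 10% or more Pomc its level was 158 non-hormone CPM in library 4 (112 to 216), 575 in library 5 (248 to 1134) and 67.8 in library 6 (37.9 to 112). Under 1% Pomc it was 6.41, 1.39 and 8.13 non-hormone CPM. The ratio was 10.2 in library 4, 51.4 in library 5 and 4.29 in library 6. That of library 5 rests on 8 UMIs against 2 and is 413 without the added 10, with a counting interval of 82.4 to 3990. Tbx19 was detected in 38 of 372, 7 of 18 and 14 of 310 cells at 10% or more Pomc (10.2%, 38.9% and 4.52%), and no endothelial-gated cell of the 3 libraries had a Tbx19 UMI. The interval of library 5 for cells (17.3% to 64.3%) lay above those of libraries 4 (7.33% to 13.8%) and 6 (2.49% to 7.46%). Those 2 overlapped narrowly, from 7.33% to 7.46%.

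In libraries 4 and 6, Tbx19 was not tied to the cells with most Pomc. From 1% to 10% Pomc it stood at 170, 192 and 184 non-hormone CPM in libraries 4, 5 and 6, with intervals that overlapped across the libraries, and was found in 12.6%, 10.7% and 19.0% of the cells. After thinning to 500 UMIs these were 7.06%, 11.4% and 9.79%, and at 10% or more they were 8.37%, 7 of 14 cells and 2.07%. The ratio of the class at 10% or more to the middle one was 0.93 in library 4, 2.90 in library 5 (8 UMIs against 7) and 0.40 in library 6. The counting interval of library 5 (0.950 to 9.71 without the added 10) included 1, so its order is left undecided. In libraries 4 and 6 the same ratio was 15.5 and 10.7 for Pcsk2, and 15.2 and 8.55 for Oacyl.

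Pcsk1 was scarce in every class. In the upper class it was read 7, 2 and 9 times in libraries 4, 5 and 6, in 7 of 372, 2 of 18 and 9 of 310 cells. Its level was 28.3 non-hormone CPM in library 4 (11.4 to 58.4), 144 in library 5 (17.4 to 520) and 40.7 in library 6 (18.6 to 77.2), against 57.3, 25.1 and 57.6 under 1% Pomc. The ratios of 0.57, 4.38 and 0.75 had counting intervals that included 1 in each library (0.195 to 1.05, 0.669 to 22.3 and 0.318 to 1.37 without the added 10). Most Pcsk1 UMIs of the 3 libraries lay in cells under 1% Pomc, 134 of 146 in library 4, 36 of 40 in library 5 and 170 of 189 in library 6.

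The granule genes differed from each other. Resp18 stood at 2251 non-hormone CPM at 10% or more Pomc in library 4 (2067 to 2446), 3813 in library 5 (2856 to 4987) and 3078 in library 6 (2851 to 3318), and at 881, 814 and 858 under 1% Pomc. The ratios were 2.54, 4.64 and 3.56, and that of library 6 was 11.1 with free RNA subtracted and 5.60 with totals that leave out Pomc alone. In the middle class Resp18 stood between the other two in each library, at 1203, 1947 and 1282 non-hormone CPM. Its UMIs were carried by 65.9%, 83.3% and 77.4% of the Pomc-rich cells, and by 63.3%, 85.7% and 67.6% after thinning to 500 UMIs. Resp18 was also common outside them, in 32.8%, 22.6% and 38.7% of the cells under 1% Pomc, against 10.4%, 3.11% and 8.89% of the endothelial-gated cells.

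Chgb was within 2-fold between these classes in each of the 3 libraries. With free RNA subtracted its ratio in library 6 was 0.036, but the subtraction left no Chgb in the upper class. That ratio is the added 10 set over what remained under 1% Pomc, so its size is not read. It stood at 550, 504 and 836 non-hormone CPM at 10% or more Pomc and at 810, 664 and 1337 under 1% in libraries 4, 5 and 6. The ratios were 0.68, 0.76 and 0.63, and the counting intervals of libraries 4 (0.567 to 0.809) and 6 (0.537 to 0.725) excluded 1. With totals that leave out Pomc alone the ratios were 0.99, 1.08 and 0.99, and per 1000000 of all UMIs they were 0.76, 0.87 and 0.69. Chgb UMIs were carried by 28.0%, 38.9% and 40.6% of the cells at 10% or more Pomc and by 24.6%, 13.1% and 38.9% of those under 1%. Thinned to 500 UMIs, these shares were 22.7%, 21.4% and 29.9% against 18.9%, 16.7% and 36.0%, and no order is read from them.

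Counted over all 3 libraries, 1 of the 4 members with at least 20 UMIs in both classes together in each library was higher at 10% or more Pomc, which was Resp18. Among all genes with that many UMIs, 31 of 9054 were higher (0.342%). That share was 1.34% with totals that leave out Pomc alone and 1.35% with free RNA subtracted. Tbx19 also passed 2-fold in each library but had 10 such UMIs in library 5. In libraries 4 and 6 alone, 4 of 6 members were higher (Pcsk2, Tbx19, Oacyl and Resp18), against 90 of 10677 genes (0.843%). Of these, Oacyl passed the minimum of UMIs only through the upper class, with 5 and 9 UMIs under 1% Pomc, and so did Tbx19 in library 4, with 15, so nothing is read from their part in the count. Leaving out library 5, with its 18 cells in the class, therefore raised the count from 1 to 4, while leaving out library 4 or library 6 left it at 1. With cells at 10% or more Gh left out, the counts were again 1 of 4 and 4 in libraries 4 and 6.

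Against the class from 1% to 10% in libraries 4 and 6, 2 of the 5 members with enough UMIs were higher at 10% or more Pomc (Pcsk2 and Oacyl), where 35 of 2757 genes were (1.27%). Oacyl, with 3 and 12 UMIs in the middle class, passed the minimum of UMIs only through the upper class, so nothing is read from its part in this count. None of the 5 was lower in both, where 58 genes were (2.1%). From under 1% to the class of 1% to 10%, no member of the 4 with enough UMIs was higher in all 3 libraries, where 54 of 9099 genes were (0.593%). Tbx19 had ratios of 11.0, 17.7 and 10.7 there but too few UMIs in library 5, and in libraries 4 and 6 alone it was the 1 of 5 members that was higher, where 78 of 10658 genes were (0.732%). In library 4 it passed the minimum only through the middle class (30 UMIs against 15), so nothing is read from that count either. Tbx19 was lower in the upper class than in the middle one in library 6 (counting interval 0.190 to 0.675), while its interval in library 4 included 1.

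**Figure D4:**
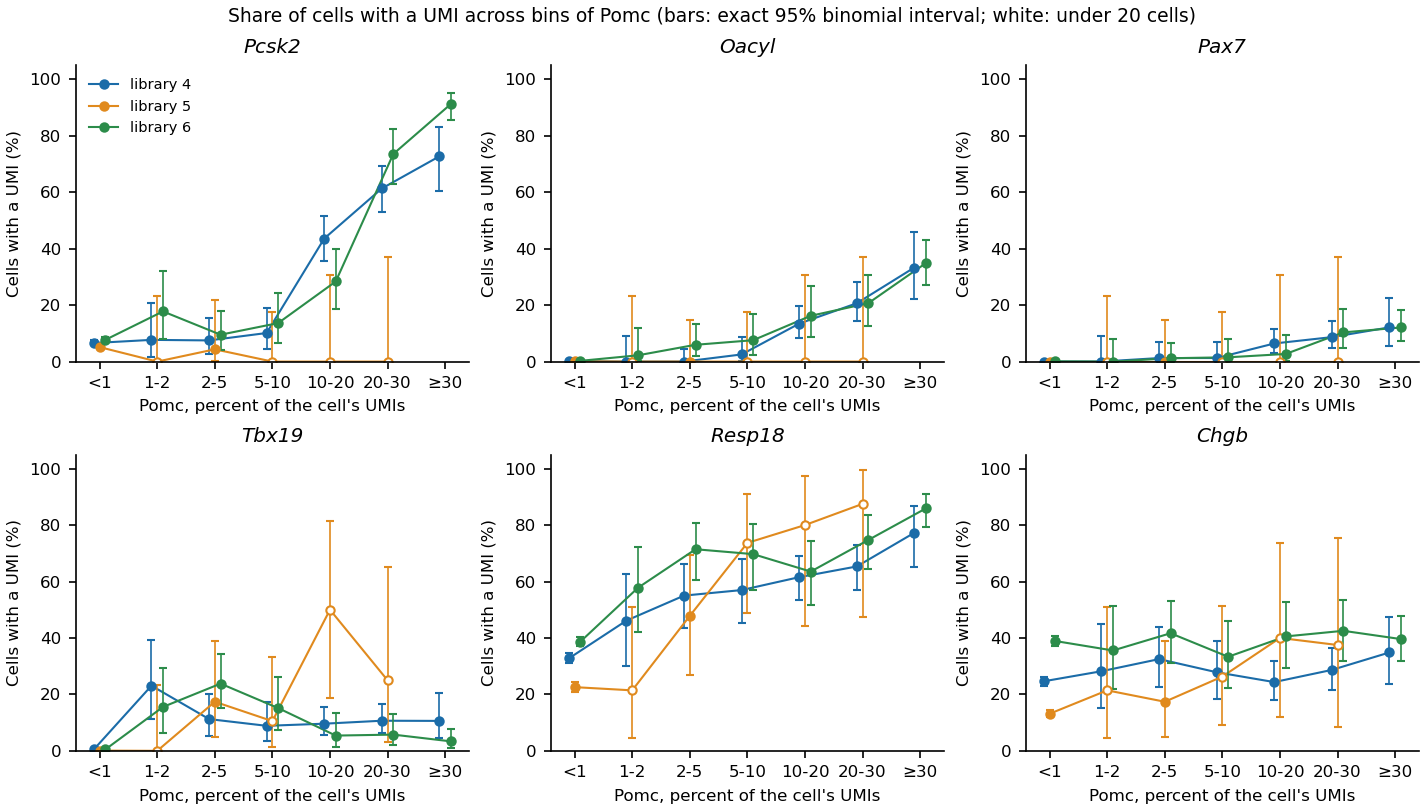
Percent of cells with a UMI of each gene in 7 bins of the Pomc share, for libraries 4, 5 and 6, with exact 95% binomial intervals and white points for bins under 20 cells. In libraries 4 and 6 the Pcsk2 share climbs to 72.7% and 91.3% in the bin of 30% and more, while the Tbx19 share does not climb.

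Narrower bins of Pomc showed where the step lay. In library 4 Pcsk2 was found in 7.69%, 7.50% and 10.1% of the cells from 1% to 2%, 2% to 5% and 5% to 10% Pomc. It was then found in 43.6% of the 156 cells from 10% to 20%, 61.3% of the 150 from 20% to 30% and 72.7% of the 66 at 30% or more. In library 6 the 6 shares were 17.8%, 9.52%, 13.6%, 28.4%, 73.6% and 91.3%. The widest step lay between the bins of 5% to 10% and 10% to 20% in library 4, and between those of 10% to 20% and 20% to 30% in library 6. These bins were chosen after the values were seen. Library 5 had no cell at 30% or more, and its bins above 1% held 8 to 23 cells each, with 1 Pcsk2-positive cell in all.

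Oacyl and Pax7 were detected in fewer cells of these bins. In the 3 bins from 10% upward, 13.5%, 20.7% and 33.3% of the cells of library 4 carried Oacyl, as did 16.2%, 20.7% and 34.9% in library 6. From 1% to 10% Pomc it was found in 2 of 198 cells in library 4 and 11 of 195 in library 6. Pax7, which is no member but marks the melanotroph, was carried by 6.41%, 8.67% and 12.1% in those bins of library 4 and by 2.70%, 10.3% and 12.1% in library 6, with intervals that overlapped between the bins. Over the whole class of 10% or more, Pax7 was in 31 of 372, 0 of 18 and 29 of 310 cells of libraries 4, 5 and 6, and among cells under 1% Pomc it was in 0 of 2921, 0 of 2632 and 3 of 3411.

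Crhr1, the CRH receptor of corticotrophs, was read in few cells. It was found in 14 of 198, 4 of 56 and 7 of 195 cells from 1% to 10% Pomc in libraries 4, 5 and 6, in 7 of 372, 0 of 18 and 3 of 310 cells at 10% or more, and in none of the 66 and 149 cells of libraries 4 and 6 at 30% or more. Under 1% Pomc its share was 0.137%, 0.152% and 0.147%. The counting interval of its ratio between the upper and the middle class excluded 1 in library 4 (0.115 to 0.868) and included 1 in libraries 5 and 6, which held 6 and 10 UMIs in both classes together. The share of cells with Tbx19 in library 6 was 15.6%, 23.8% and 15.2% in the 3 bins from 1% to 10% and 5.41%, 5.75% and 3.36% in those above. For library 4 the shares were 23.1%, 11.2% and 8.86%, and then 9.62%, 10.7% and 10.6%.

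Within single cells, Pcsk2 and Oacyl came together more often than their separate shares would give. At 10% or more Pomc, 57 cells of library 4 held both, where the product of the 2 shares gives 41.4 cells, and 76 cells of library 6 did, where it gives 58.5. Oacyl was found in 27.4% of the Pcsk2-positive cells and 10.4% of the Pcsk2-negative cells of library 4, and in 34.4% and 6.74% of those of library 6. In all UMIs the 2 sets of cells had like depths, with medians of 746 and 773.5 UMIs in library 4 and 902 and 896 in library 6. In non-hormone UMIs the Pcsk2-positive cells were shallower, with medians of 564.5 against 625.5 in library 4 and 576 against 717 in library 6. These are descriptions of cells of 1 library each, with no test.

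Pax7 went with Pcsk2 as well. It was found in 23 of the 208 Pcsk2-positive cells of library 4 and 8 of the 164 others, and in 28 of 221 and 1 of 89 in library 6. Crhr1 was found in 0 of 208 Pcsk2-positive cells and 7 of 164 others in library 4, and in 0 of 221 and 3 of 89 in library 6. The 2 counts of 0 allow shares of up to 1.44% and 1.36%. Pcsk2-negative cells had the higher median of non-hormone UMIs in both libraries, and the part this had in the Crhr1 counts was not tested. The split by Pcsk2 was chosen after its values were seen.

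Tbx19 and Pcsk2 met about as often as their shares give in cells at 10% or more Pomc. In library 4 the 2 were found together in 21 cells, where the product gives 21.2, and in library 6 in 8 cells, where it gives 9.98. Over all cells at 1% or more, Tbx19 was found in 10.2% of Pcsk2-positive and 11.6% of Pcsk2-negative cells of library 4. In library 6 it was found in 3.66% and 16.2%, shares that depend on the class sizes. Within the classes of library 6 they were 3.62% and 6.74% at 10% or more Pomc, and 4.00% (1 of 25 cells) and 21.2% from 1% to 10%. The intervals overlapped in both classes. Resp18 was found in 63.9% and 68.3% of Pcsk2-positive and Pcsk2-negative cells of library 4, and in 77.8% and 76.4% of those of library 6, at 10% or more Pomc. Resp18 thus did not separate the cells that Pcsk2 did.

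The Pcsk2-positive cells held more Pomc. Their median Pomc share was 23.4% against 19.2% in Pcsk2-negative cells of library 4, and 32.8% against 17.7% in those of library 6. In the class from 1% to 10% of library 6, the 25 Pcsk2-positive cells had a median of 2082 UMIs and the 170 others 858. The 8046 Gh UMIs of those 25 cells were above the 2080 of Pomc. The part that mixtures of cells in a droplet had in that class was not tested, and no doublet caller was run.

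At 10% or more Pomc, 30 of the 372 cells of library 4 held none of the other 6 members, as did 2 of 18 in library 5 and 14 of 310 in library 6. The most common number of members in a cell was 2 in each library, in 135, 9 and 114 cells. All 6 were read in 1 cell of library 6. Under 1% Pomc, 53.1%, 67.3% and 37.4% of the cells held none of the 6.

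The wider lists of genes were counted in the same way. In libraries 4 and 6, 0.843% of all 10677 genes were higher at 10% or more Pomc than under 1%, and 792 (7.42%) were lower. Of the 11 peptide-processing genes with enough UMIs in libraries 4 and 6, none was higher at 10% or more Pomc than under 1%, and Cpd and Pcsk6 were lower. Both passed the minimum of UMIs only through the cells under 1%, so nothing is read from that count. The list median ratio was 0.71 in library 4 and 0.76 in library 6, beside 0.84 and 0.83 over all 10677 genes. Pcsk1n, which encodes an inhibitor of convertase 1, had ratios of 1.96, 1.97 and 1.34 in libraries 4, 5 and 6. Against the middle class, Pam, the enzyme that amidates α-MSH, was higher at 10% or more Pomc by 2.00 in library 4 and 2.70 in library 6. Cpe, which trims the cut peptides, was within 2-fold there, at 1.12 and 1.49. Scg5, the chaperone of convertase 2, was within 2-fold too, at 1.40 and 1.34.

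Of the 9 secretory granule genes, 2 were higher in libraries 4 and 6 (0.843% of all genes), which were Resp18 and Syt1. Syt1, the calcium sensor of vesicle release, had ratios of 2.71 and 3.02. Chga, which encodes chromogranin A, had ratios of 1.02 and 1.83 against cells under 1% and of 2.38 and 3.19 against the middle class in libraries 4 and 6. In library 5, with 3 UMIs at 10% or more Pomc, they were 0.32 and 0.29. Scg2 stood at 0.60 and 0.90 and Rab3b at 1.70 and 1.83 against cells under 1%. The list median was 1.02 in library 4 and 1.62 in library 6.

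Of the 8 pituitary regulators with enough UMIs, none was higher in both libraries and 2 were lower (7.42% of all genes). These 2, Isl1 and Pou1f1, passed the minimum of UMIs only through the cells under 1% Pomc, so nothing is read from that count. Pou1f1, the factor of Gh, Prl and Tshb cells, was found in 1 of 372, 0 of 18 and 5 of 310 cells at 10% or more Pomc, against 10.5%, 5.05% and 19.7% of cells under 1%. Isl1 was found in 0 of 372 and 1 of 310 cells of libraries 4 and 6. Nr4a1, an early-response factor that acts on Pomc, differed between libraries, with ratios of 3.33 in library 4 and 0.83 in library 6, and it was not read in the 18 cells of library 5.

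Of the 6 genes of corticotroph regulation with enough UMIs, 1 was lower in libraries 4 and 6 (7.42% of all genes) and none was higher. This was Fkbp5, a target of the glucocorticoid receptor, at 0.40 and 0.41. With 12 and 13 UMIs at 10% or more Pomc, it passed the minimum only through the cells under 1%, so nothing is read from that count. The receptor gene Nr3c1 stood at 0.67 and 0.74. Of the 6 corticotroph or melanotroph genes with enough UMIs, 4 were higher (Tbx19, Pcsk2, Pax7 and Oacyl), against 0.843% of all genes. Of the 4, 3 are members, and Pax7, Oacyl and, in library 4, Tbx19 passed the minimum of UMIs only through the upper class. Drd2, the dopamine receptor of melanotrophs, was read in none of the 700 cells at 10% or more Pomc.

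Of the 5 stem or folliculostellate genes, 4 were lower in libraries 4 and 6 (Sox9, S100b, Aldh1a2 and Cyp2f2), and of the 6 endothelial genes 5 were. So were 3 of 7 microglial, 3 of 5 astrocyte and 2 of 3 somatotroph genes, and none of these was higher. Over all genes the share lower was 7.42% and the share higher 0.843%. In library 6 each gene called lower in this paragraph had under 20 UMIs at 10% or more Pomc. These genes passed the minimum there only through the cells under 1%, so nothing is read from the counts of lower genes. Of the 6 hypothalamic POMC neuron genes with enough UMIs, 1 was higher (Syt1) and 2 were lower (Isl1 and Tubb3), and Snap25 had ratios of 1.51 and 1.43. Tubb3 was found in 6 of 372, 0 of 18 and 4 of 310 cells at 10% or more Pomc and Stmn2 in 4, 0 and 8. Lepr was found in none of them. Cartpt was found in 4, 1 and 2 of them and in 13 of 198, 2 of 56 and 10 of 195 cells of the middle class. Cells with at least 5 UMIs of the 4 neuronal genes were 2 of 372, 0 of 18 and 0 of 310 at 10% or more Pomc. Mitochondrial genes made up, of non-hormone UMIs, 4.54%, 4.63% and 3.53% at 10% or more Pomc, against 6.24%, 6.71% and 4.17% under 1%.

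**Figure D5:**
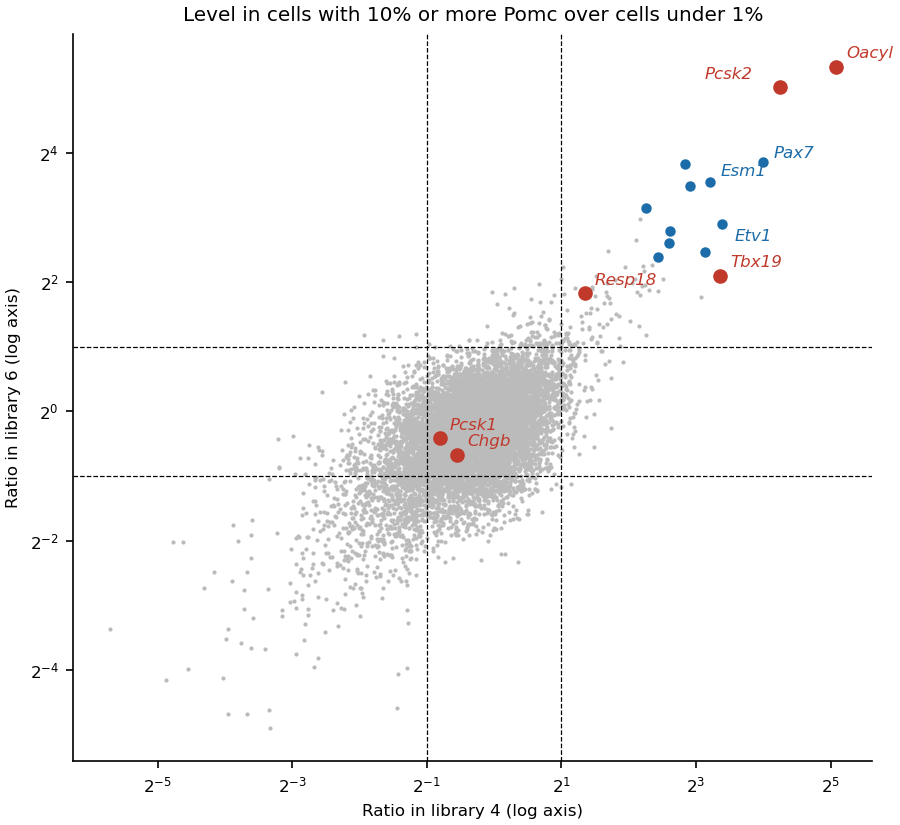
Ratio of levels in cells at 10% or more Pomc over cells under 1%, in library 4 (x) and library 6 (y), both on log axes, for 10677 genes, with 2-fold marked by dashed lines. Red points are the 6 members and blue points are the other genes among the 12 most like Pomc in those libraries, and Oacyl and Pcsk2 lie at the upper right end.

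Genes most like Pomc were ranked by the lowest of their ratios over the libraries, among non-hormone genes with at least 20 UMIs at 10% or more Pomc in each. Since a gene enters by its UMIs in that class, the ranks are a description of genes that are read there. With all 3 libraries, 98 genes could be ranked and Nmb, which encodes neuromedin B, came first, with ratios of 4.93, 42.0 and 3.68. Resp18 came second. The next were Atp5e, Gnas, Fth1, Ngfrap1, Atp5l, Mt2, Ly6h, Cox8a, Pcsk1n and Eif1, all under 2-fold in library 6. Gnas, the stimulatory G protein subunit, had ratios of 1.97, 3.60 and 1.70.

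With libraries 4 and 6 alone, a ranking added after the values were seen, 1409 genes could be ranked and the leading 3 were Oacyl, Pcsk2 and Pax7. Pax7 had 37 and 33 UMIs at 10% or more Pomc, against 0 and 3 under 1%. After them came Esm1 (9.23 and 11.7), Ccdc109b (7.50 and 11.3), Etv1 (10.4 and 7.43), Pkib, Cryba2, Emd, Obsl1, Cidea and Pabpc1l. Resp18 was 41st of the 1409 and Chgb 1290th.

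In library 5 the 18 Pomc-rich cells held no UMI of Oacyl, Pcsk2, Pax7, Esm1, Etv1, Pkib or Pabpc1l. They did hold 16 of Emd, 16 of Cidea, 11 of Obsl1, 4 of Ccdc109b and 1 of Cryba2. Library 5 had 1151 non-hormone CPM of Emd there, against 522 and 565 in libraries 4 and 6, and 1151 of Cidea against 397 and 470. A count of 0 there allows up to 216 non-hormone CPM. The levels of Oacyl, Pcsk2 and Etv1 in libraries 4 and 6 lay above that limit. These genes were ranked by their values in libraries 4 and 6, so a contrast with library 5 is partly built in and none is read here. From 10% to 20% Pomc, where 10 of the 18 cells of library 5 lay, Oacyl stood at 232 and 226 non-hormone CPM in libraries 4 and 6. Those of Pax7, Esm1, Pkib and Pabpc1l lay below it, so for these 4 genes a difference of library 5 from libraries 4 and 6 was not detectable at this depth.

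The genes least like Pomc, ranked among 9010 genes by the highest of their 3 ratios, were Igfbp5, Rarres2, Cck, Mia and Tm4sf1. Igfbp5, a binding protein of insulin-like growth factors, was read 4, 0 and 7 times at 10% or more Pomc and 1769, 455 and 2170 times under 1% in libraries 4, 5 and 6. Cck was read in none of the Pomc-rich cells and 526, 432 and 437 times in the others.

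Outside the Pomc-rich cells, Pomc was spread thinly through libraries 4 to 6. Endothelial-gated cells, none of them at 1% Pomc, held Pomc in 52 of 134 cells in library 4, 6 of 161 in library 5 and 24 of 45 in library 6. Their levels were 612, 98.0 and 710 CPM, lowest in library 5, which also had the lowest total of the 3. Cells with at least 5 UMIs of 8 microglial genes held Pomc in 63 of 164, 13 of 151 and 22 of 40 cells. Of the microglial-gated cells, 3, 3 and 2 were at 1% to 10% Pomc in libraries 4, 5 and 6, and 5 cells of library 4 were at 10% or more. A single Pomc UMI in these libraries was therefore not read as expression, and the classes start at 1%.

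In the other 6 libraries, 364 of 19458 cells (1.87%) held a Pomc UMI and none reached 1% Pomc. The most in any cell was 3 UMIs, and the highest share of any cell was 0.437%. The barcodes of these libraries recurred in libraries 4 to 6 for 280 cells, of which 7 held Pomc, and 2 of the 7 had the barcode of a cell at 10% or more Pomc.

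This low Pomc was uneven between the 2 gates. In endothelial-gated cells of libraries 7, 8 and 9 it stood at 92.5 CPM (76.8 to 110), 26.2 CPM (16.6 to 39.2) and 59.9 CPM (46.8 to 75.4). In microglial-gated cells of the same libraries it stood at 18.6 CPM (12.1 to 27.2), 11.2 CPM (5.12 to 21.2) and 14.6 CPM (8.79 to 22.8). The intervals were apart in libraries 7 and 9 and overlapped in library 8. By cells, Pomc was found in 9.76%, 2.58% and 6.93% of endothelial-gated cells and in 1.80%, 0.913% and 2.02% of microglial-gated cells, with median depths of 967, 813 and 1036.5 UMIs against 864, 648 and 973.

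In libraries 1 to 3 the endothelial-gated cells held 51.5, 31.4 and 43.7 CPM of Pomc and the microglial-gated cells 5.11, 16.8 and 0 CPM, from at most 16 UMIs in any gate. The level was higher in the endothelial gate in all 6 libraries, though the intervals overlapped in libraries 1, 2 and 8. Neuronal-gated cells of libraries 1 to 3 held 15.4, 6.95 and 4.33 CPM. Gh, measured in the same way, was read in none of the endothelial-gated cells of libraries 7 and 9 and 6 times in those of library 8. In libraries 1 to 3 it stood at 103, 31.4 and 49.2 CPM in the endothelial gate, from 6, 5 and 18 UMIs, and at 112, 50.3 and 60.3 CPM in the microglial gate. The processing gene Pcsk2 stood at 5.31, 5.69 and 28.3 CPM in the endothelial-gated cells of libraries 7, 8 and 9, and at 492, 284 and 326 CPM in their neuronal-gated cells.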

How the data were processed

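Cell suspensions of 3 pooled mice were sequenced on the 10x droplet platform, and the authors mapped reads with Cell Ranger 2.2.0 to GRCm38. The deposited table holds UMI counts per gene and cell from the filtered output of that software, with 1 row for each of 18634 genes and no normalization. Cells were used as deposited, with no further filter, and doublets were not called. The members and gene lists were chosen with earlier results of these data known.

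Libraries could not be assigned to tissues or sleep groups, and each is 1 unreplicated sample. No test was run and no p-value or standard deviation is given. Sums of counts have exact Poisson and shares exact binomial (Clopper-Pearson) 95% intervals, which cover counting error only. For a count of 0, the limit is that of 3 counts. Total counts per library were 1522766 to 5488950. Levels by Pomc class are counts per 1000000 without 7 hormone genes, with 10 added before ratios. A gene was called at 2-fold in each library compared, with at least 20 UMIs in both classes together. Named genes were the 7 members, genes of the fixed lists, the 12 genes most like Pomc and the 5 least like it. The ratio rule was also run on simulated data, from which no value is given. Alternatives were other thresholds, totals and added values, deeper cells, subtraction of free RNA and leaving out each library. Analyses used Python 3.11.15 with numpy 2.4.6 and scipy 1.17.1.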

Additional observations from a re-analysis of the deposited data

How the results depend on the processing

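The number of cells at 10% or more Pomc depended on the threshold. At 5% library 5 had 37 such cells, and at 20% library 4 had 216 and library 5 had 8. With at least 1000 UMIs per cell, 96, 8 and 126 remained in libraries 4, 5 and 6. Counts under the remaining settings stayed within 1.5 times, and libraries 4 and 6 stayed above library 5 under every setting run. The count of members higher in all 3 libraries was 1 under each alternative that changed totals, thresholds or cells. Leaving out 1 library each gave 1 to 4, with 4 only without library 5, and with no minimum of UMIs, a choice made after seeing the data, it was 2. In libraries 4 and 6 it was 3 with at least 1000 UMIs per cell and 4 under the other 10 alternatives run.

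Of 198 member ratios under alternatives, 17 moved by over 1.5 times, while 195 stayed on the same side of 2-fold. The 198 include those of Pcsk2 and Oacyl in library 5, which had 0 UMIs in the upper class. Their size rests on the added value, so their side says nothing of stability. With free RNA subtracted, Pcsk2 was 199 and 129 in libraries 4 and 6, Tbx19 15.9 in library 4 and Resp18 11.1 in library 6. In library 4 the subtraction left no Pcsk2 or Tbx19 under 1% Pomc, so the 199 and 15.9 divide by the added 10 alone. With 1 CPM added, Oacyl was 128 and 128 in libraries 4 and 6, and Tbx19 21.4, 241 and 7.54 in libraries 4, 5 and 6. With totals that leave out Pomc alone, library 6 gave 48.8 for Pcsk2, 5.60 for Resp18 and 0.99 for Chgb. In library 5, Resp18 was 3.03 with at least 1000 UMIs per cell and Tbx19 30.6 with a threshold of 20%. The exceptions to the side of 2-fold were Pcsk1 in library 4 with an upper threshold of 5% (0.48), Oacyl in library 5 with 1 CPM added (0.42, from 0 UMIs against 2) and Chgb in library 6 with free RNA subtracted (0.036). In that Chgb ratio the subtraction left nothing in the upper class, so its size is set by the added 10. No called ratio turned its direction. Thinning to 500 UMIs lowered the share of Pomc-rich cells with Pcsk2 to 47.4% in library 4 and 61.8% in library 6, with Oacyl to 15.5% and 21.6%, and in library 6 with Pcsk1 to 1.24% and with Tbx19 to 2.07%. No paired analysis was possible, since each tissue and sleep group had 1 library and the libraries could not be tied to groups. Library 5, with 18 cells at 10% or more Pomc, sets the depth limit of comparisons of that class across the 3 libraries.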
